A study of Mus musculus with 4 samples.

Results

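The genes described here are 10 immediate early genes: the AP-1 genes Fos, Fosb, Jun, Junb and Atf3, the zinc finger genes Egr1 and Egr2, and the orphan nuclear receptor genes Nr4a1, Nr4a2 and Nr4a3. They were taken by symbol from the deposited table of raw counts, where all 10 of the 10 were found among 24061 gene rows. All 10 were among the 13022 genes that passed the filter on low counts. The libraries hold RNA of effector regulatory T cells from mouse Peyer's patches, the lymphoid follicles of the gut wall, sorted as CD4-positive and FoxP3-positive cells without CD62L. About 40000 cells went into each library. Mice were 13 weeks old, on a C57BL/6 background at backcross generation 5, and were kept free of specific pathogens including Helicobacter hepaticus. All 4 libraries carry FoxP3-YFP-cre, a Cre recombinase with a yellow fluorescent protein under the control of Foxp3, so both the controls and the floxed mice express Cre in FoxP3-positive cells. The titles and genotype fields assign 2 libraries to Maf+/+ FoxP3-YFP-cre mice (labelled wt 1 and wt 2) and 2 to Mafflox/flox FoxP3-YFP-cre mice (labelled flox 1 and flox 2). The study asked which transcripts depend on c-Maf, a transcription factor of the basic leucine zipper class. Whether libraries of a group come from different animals is not stated in the labels; p-values below therefore reflect the spread between these libraries alone, which may be technical.

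Immediate early genes are transcribed within minutes of a stimulus without new protein synthesis, from promoters that are already occupied by factors such as SRF and CREB. In T cells the antigen receptor drives them through calcium and MAP kinase signals. FOS and JUN family proteins pair through leucine zippers to form AP-1, EGR proteins bind GC-rich sites through zinc fingers, and NR4A proteins are nuclear receptors whose level, rather than a ligand, sets their activity. NR4A factors take part in maintaining Foxp3 expression in regulatory T cells. Transcripts of these genes also rise when tissue is dissociated and cells are handled.

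Maf itself did not follow the genotype labels. Throughout, 4 values in a row run from labelled wt 1 through wt 2 and flox 1 to flox 2 and are CPM, a gene's reads relative to the total of all gene counts after TMM scaling between libraries. Maf had 149, 1.98, 122 and 0.725 CPM, so that both libraries numbered 1 in their titles were high and both numbered 2 were low. The genotype labels of wt 2 and flox 1 thus went against the targeted gene. In addition, the authors' deposited table of normalized values matches a grouping by number. Recomputed as edgeR pseudo-counts, 100% of its 42472 values were matched within a relative tolerance of 1e-06 with the libraries grouped by number, against 3.25% with the labelled genotypes and 3.4% with the remaining grouping. Each gene was therefore compared by title number (1 against 2) as well as by labelled genotype, with no library moved to another label. A direction by number is a direction between titles, which in these libraries coincides with the Maf level. Total gene counts ranged from 19368745 to 24687897. The library labelled flox 2 stood apart in heat shock genes, with a summed level of 13300 CPM over 11 genes against 5000 to 5770 in the other libraries. The defining genes of the sorted cells were present in every library, with Foxp3 at 93.8, 104, 91 and 104 CPM and Cd4 at 983, 998, 920 and 973.

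The promoters of 5 of the genes are shown because these genes cover the range of responses by number: Nr4a1 and Egr2 passed the test, Fos and Fosb had separate groups without passing it, and Jun did not separate by number. Each sequence is the 250 bases before a RefSeq start of transcription, the one nearest to the start of a principal GENCODE transcript, 5′ to 3′ on the strand of the gene, from RefSeq (GRCm38.p6, the same assembly as mm10). Nr4a1 lies at chr15:101266596-101266845, plus strand; Egr2 at chr10:67537619-67537868, plus strand. Egr2 has 5 starts in the RefSeq table, and the windows of Egr2 and Nr4a1 lie within the span of these genes in GENCODE vM21, downstream of other annotated starts. The windows of Fos (chr12:85473640-85473889, plus strand), Fosb (chr7:19310046-19310295, minus strand) and Jun (chr4:95052223-95052472, minus strand) follow. Capitals mark matches, on either strand, to TGACG (the core of the cyclic AMP response element), GCGNGGGCG (the EGR site) and the CArG box bound by SRF.
Nr4a1: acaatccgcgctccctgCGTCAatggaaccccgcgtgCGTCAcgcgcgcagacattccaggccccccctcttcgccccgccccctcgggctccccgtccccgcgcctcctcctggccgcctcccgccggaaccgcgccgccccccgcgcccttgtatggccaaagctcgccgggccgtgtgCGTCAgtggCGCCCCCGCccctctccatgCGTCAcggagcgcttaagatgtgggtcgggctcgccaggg
Egr2: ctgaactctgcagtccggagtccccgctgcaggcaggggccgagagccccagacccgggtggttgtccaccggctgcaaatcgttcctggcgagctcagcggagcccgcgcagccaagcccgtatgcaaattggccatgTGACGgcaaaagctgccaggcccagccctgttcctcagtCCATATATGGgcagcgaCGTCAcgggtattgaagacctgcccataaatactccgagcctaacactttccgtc
Fos: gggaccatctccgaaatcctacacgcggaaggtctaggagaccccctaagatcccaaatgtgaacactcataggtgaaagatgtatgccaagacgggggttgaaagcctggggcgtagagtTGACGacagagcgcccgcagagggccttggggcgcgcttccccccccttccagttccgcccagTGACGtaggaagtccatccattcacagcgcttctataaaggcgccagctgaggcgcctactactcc
Fosb: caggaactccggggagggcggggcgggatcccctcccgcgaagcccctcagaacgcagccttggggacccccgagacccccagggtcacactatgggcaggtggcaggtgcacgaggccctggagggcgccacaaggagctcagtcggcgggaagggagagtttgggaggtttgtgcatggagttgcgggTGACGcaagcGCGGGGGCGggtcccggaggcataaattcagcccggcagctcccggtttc
Jun: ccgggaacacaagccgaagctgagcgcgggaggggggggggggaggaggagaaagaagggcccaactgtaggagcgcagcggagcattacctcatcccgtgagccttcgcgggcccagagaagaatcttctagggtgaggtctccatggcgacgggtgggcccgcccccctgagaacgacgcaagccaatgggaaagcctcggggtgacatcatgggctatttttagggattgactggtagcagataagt

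Windows were found for 9 of the 10 genes, all but Egr1. TGACG or its reverse complement was present in 8 of the 9 windows, Jun being the exception, against 17.8% of 32851 RefSeq windows of this length and 26.2% of the 12478 windows of tested genes. Atf3 and Nr4a2, whose groups by number overlapped like those of Jun, also held TGACG or its reverse complement. Nr4a1, Nr4a2 and Nr4a3 each held 4 matches. The Nr4a1 match nearest the start lay 40 to 36 bases upstream. The EGR site was present in the windows of Nr4a1, Nr4a2 and Fosb, 3 of 9, against 4.7% of all windows and 8.42% of those of tested genes. The CArG box was present in 1 of the 9 windows, that of Egr2, 72 to 63 bases upstream, against 1.47% of all windows. The palindromic response element TGACGTCA, the AP-1 site TGANTCA and the NR4A site AAAGGTCA had no match in the 9 windows, against 1.55%, 6.75% and 1.34% of all windows. These matches describe letters in a short window and not binding.

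The 10 genes were abundant and took up 1.59%, 1.01%, 1.57% and 1.18% of all gene counts. Compared per length, as CPM per kb of exon (mean ± SD over the 4 libraries), Junb was highest at 3240 ± 583. Nr4a1 followed at 806 ± 338, Fos at 489 ± 178 and Jun at 216 ± 26.8, and these 4 kept this order in each library. Nr4a2 (112 ± 27.8), Egr2 (97 ± 30.8) and Egr1 (76.7 ± 19.6) came next, and neighbours among these differed by less than the larger of their SDs. Atf3 (20 ± 5.42), Fosb (15 ± 5.23) and Nr4a3 (10.1 ± 4.26) were lowest, again with neighbours within 1 SD. The exon lengths were taken from GENCODE vM21, and the authors' own annotation is not given in the sources used here.

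By title number, the level of all 10 genes was on average higher in the libraries numbered 1. For 7 of the 10, both libraries numbered 1 lay above both numbered 2, which held for 22.5% of the 13022 tested genes, and the reverse order held for 0 of the 10, against 22.7%. Of the 10, 2 genes, Nr4a1 and Egr2, passed edgeR's quasi-likelihood test with Benjamini-Hochberg adjustment (adjusted p under 0.05) and were higher in the libraries numbered 1, as were 1.41% of all tested genes (184 genes). A further 0.399% were lower there, for a total of 1.81% called in either direction. DESeq2 called 5 of the 10 higher (Nr4a1, Egr2, Fos, Nr4a3 and Fosb), against 3.43% of tested genes. With edgeR the count was 4 without the filter on low counts, against 2.17%, and 4 with the label as a block, against 1.25%, in both cases Nr4a1, Egr2, Fosb and Nr4a3. The number with an unadjusted p under 0.05 was 6, all higher in the libraries numbered 1, against 8.12% of tested genes. The median log2 fold change of the 10 genes was 0.66, against -0.01 over all tested genes. In bulk RNA of this kind, fewer cells that express a gene and less RNA per cell cannot be told apart. By labelled genotype, 0 of the 10 genes passed by edgeR's quasi-likelihood test, DESeq2 or limma-voom, which called 0.00768%, 0.0922% and 0% of tested genes, and 1 of the 10 had an unadjusted p under 0.05 by the quasi-likelihood test (Atf3), against 1.98% of tested genes. Both libraries labelled flox lay above both labelled wt for the other 3 genes, Jun, Atf3 and Nr4a2, against 13.2% of tested genes, and the reverse held for 0 of the 10, against 13.8%.

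**Figure D1:**
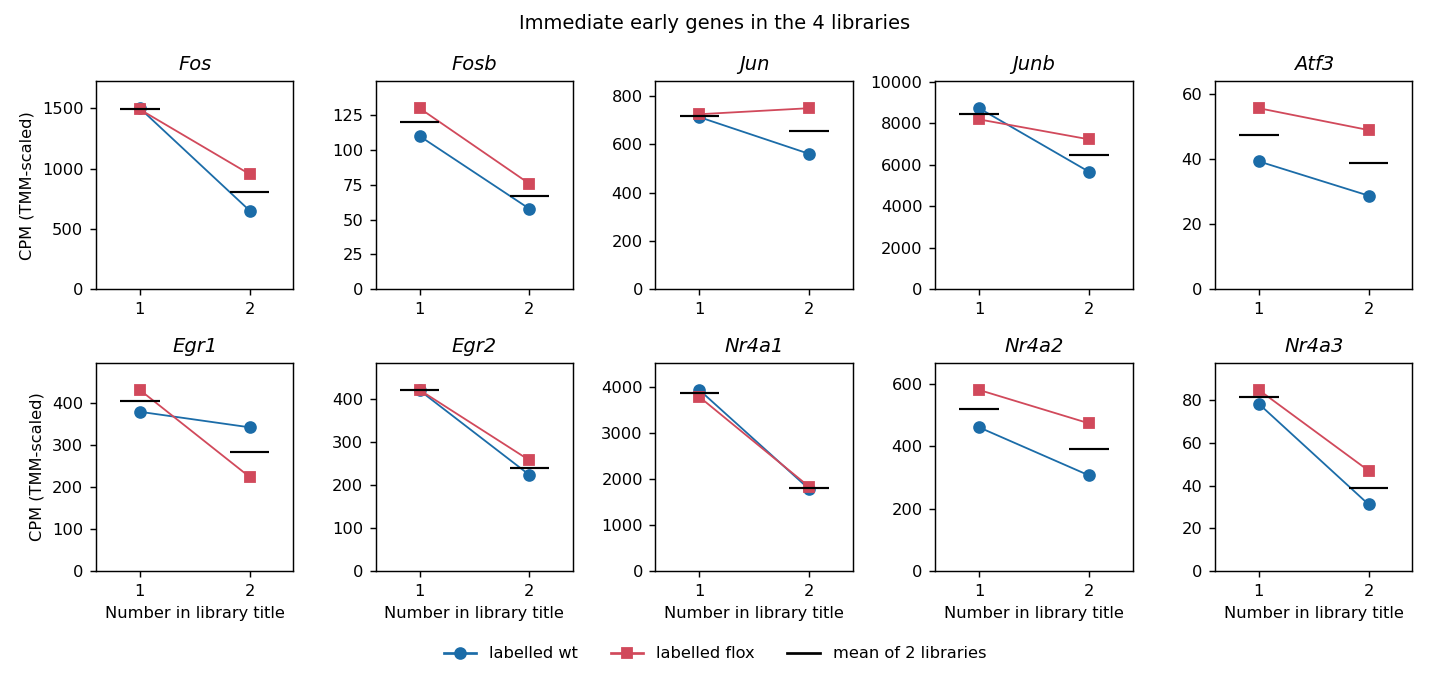
TMM-scaled CPM of each gene (y axis, from 0) against the number in the library title (x axis), with circles for the libraries labelled wt, squares for those labelled flox, lines joining libraries of 1 label and a black bar at the mean of each number. Nr4a1 and Egr2 drop from 1 to 2 by like amounts in both labels, and Jun drops in the libraries labelled wt only. Both libraries labelled flox lie above both labelled wt for Jun, Atf3 and Nr4a2.

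Among the Nr4a genes, Nr4a1 differed most clearly by number. Nr4a1, which encodes the receptor Nur77 and is widely used as a reporter of antigen receptor signals, had 3930, 1780, 3780 and 1830 CPM. The groups by number did not overlap, and libraries of the same number were close to each other, at 3860 ± 107 for number 1 and 1810 ± 30.7 for number 2 (SD, n = 2). The log2 fold change was 1.09 (SE 0.06, edgeR quasi-likelihood, adjusted p = 0.00158). The ratio of library 1 to library 2 was 2.2 within labelled wt (95% interval 2.18 to 2.23) and 2.07 within labelled flox (2.04 to 2.09), where these intervals cover counting error only, here and below. By label the log2 fold change of Nr4a1 was -0.03 (SE 0.53), and the call by number held when any 1 library was left out. The gene lies on chromosome 15 at 101254269 to 101274795 (mm10, plus strand).

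Nr4a3, which encodes NOR-1, a close relative of Nur77, had 78.3, 31.2, 84.8 and 47 CPM. Both libraries numbered 1 were higher than both numbered 2, with the lowest value in the library labelled wt 2. Its log2 fold change by number was 1.06 (SE 0.2), close in size to that of Nr4a1, but missed the threshold (edgeR quasi-likelihood, adjusted p = 0.0692). Nr4a2, which encodes NURR1, had 461, 307, 581 and 474 CPM. Here the groups by number overlapped, since the library labelled flox 2 exceeded the one labelled wt 1, and both libraries labelled flox were above both labelled wt. The log2 fold changes of Nr4a2 were similar by number (0.42, SE 0.25) and by label (0.46, SE 0.23), and neither passed (edgeR quasi-likelihood, adjusted p = 0.572 and adjusted p = 1).

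Among the Egr genes, Egr2, a transcription factor induced by the antigen receptor that restrains T cell activation, had 419, 223, 420 and 257 CPM. The libraries numbered 1 were nearly equal, and those numbered 2 were lower in both labels, with no overlap. The log2 fold change by number was 0.8 (SE 0.09, edgeR quasi-likelihood, adjusted p = 0.0149). Without the library labelled wt 1 the adjusted p was 0.111, and without flox 1 it was 0.0645, at log2 fold changes of 0.8 and 0.81. Within a label, library 1 exceeded library 2 by 1.88 times in labelled wt (1.81 to 1.95) and 1.63 times in labelled flox (1.58 to 1.69). By label the log2 fold change of Egr2 was 0.08 (SE 0.4).

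Egr1, the founding member of the family and a classical serum response gene, had 379, 342, 431 and 224 CPM. The groups by number did not overlap, but the difference came mostly from the libraries labelled flox, where the ratio of library 1 to library 2 was 1.92 (1.86 to 1.99), against 1.11 (1.07 to 1.14) in those labelled wt. With this spread the log2 fold change by number of 0.52 (SE 0.22) missed the threshold (edgeR quasi-likelihood, adjusted p = 0.411). Without the library labelled wt 2 it was 0.85 and passed (adjusted p = 0.00733). Without the library labelled flox 2 it was 0.24.

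Among the AP-1 genes, none passed the test by number, and the log2 fold changes were 0.9 and 0.84 for Fos and Fosb, 0.39 for Junb, 0.29 for Atf3 and 0.13 for Jun. Fos, the partner that gives AP-1 its inducible part, had 1500, 652, 1490 and 954 CPM. The libraries numbered 1 were close together at 1500 ± 6.15 CPM and those numbered 2 were lower and further apart at 803 ± 214 (SD, n = 2). The log2 fold change of Fos by number was 0.9 (SE 0.19), which missed the threshold (edgeR quasi-likelihood, adjusted p = 0.123). It passed without the library labelled wt 2 (0.65, adjusted p = 0.00439) and without flox 2 (1.2, adjusted p = 0.000383). Fosb, a FOS relative with a similar zipper, had 110, 57.8, 130 and 75.8 CPM. Its groups by number did not overlap, and its log2 fold change by number was 0.84 (SE 0.15, edgeR quasi-likelihood, adjusted p = 0.0634). Fosb passed without wt 2 (0.66, adjusted p = 0.0367) and without flox 2 (1.05, adjusted p = 0.00655), and Nr4a3 did likewise (0.79, adjusted p = 0.013, and 1.38, adjusted p = 0.00143).

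Junb, a JUN family member that is abundant in effector T cells, had 8730, 5670, 8190 and 7230 CPM. Both libraries numbered 1 were above both numbered 2, by 1.54 times in labelled wt (1.53 to 1.55) and 1.13 times in labelled flox (1.13 to 1.14). Its log2 fold change by number was 0.39 (SE 0.12, edgeR quasi-likelihood, adjusted p = 0.228), and 0.57 without the library labelled flox 2 (adjusted p = 0.00372). Jun, the core partner of FOS, had 713, 561, 725 and 750 CPM. The library labelled wt 2 was lowest and the other libraries were close together, so that the groups by number overlapped and those by label did not. Its log2 fold change was 0.13 (SE 0.14) by number and 0.21 (SE 0.15) by label, and neither passed edgeR's quasi-likelihood test (adjusted p = 0.761 and adjusted p = 1). In GENCODE vM21, exons of Junb overlap those of Prdx2 on the other strand over 173 bases and exons of Jun overlap those of the antisense gene Junos over 232 bases. The use of strand in the counting is not given in the sources used here, so reads from these stretches cannot be assigned with certainty. Prdx2 had 89.8, 85.1, 93.9 and 97.5 CPM, far below Junb in CPM. The deposited counts hold no row named Junos, so its level cannot be given beside that of Jun.

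Atf3, a stress-induced basic leucine zipper factor that pairs with JUN proteins, was the gene with the largest log2 fold change by label. It had 39.2, 28.7, 55.5 and 48.8 CPM, with both libraries labelled flox above both labelled wt. By label its log2 fold change was 0.62 (SE 0.19), with an unadjusted p of 0.0207 and an adjusted p = 1 by edgeR's quasi-likelihood test. By number it was 0.29 (SE 0.31) with overlapping groups, and without the library labelled wt 2 it was -0.04. The summed level of the 11 heat shock genes was 5080, 5000, 5770 and 13300 CPM, also higher in both libraries labelled flox than in both labelled wt. Their part in the values of Atf3 was not tested.

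**Figure D2:**
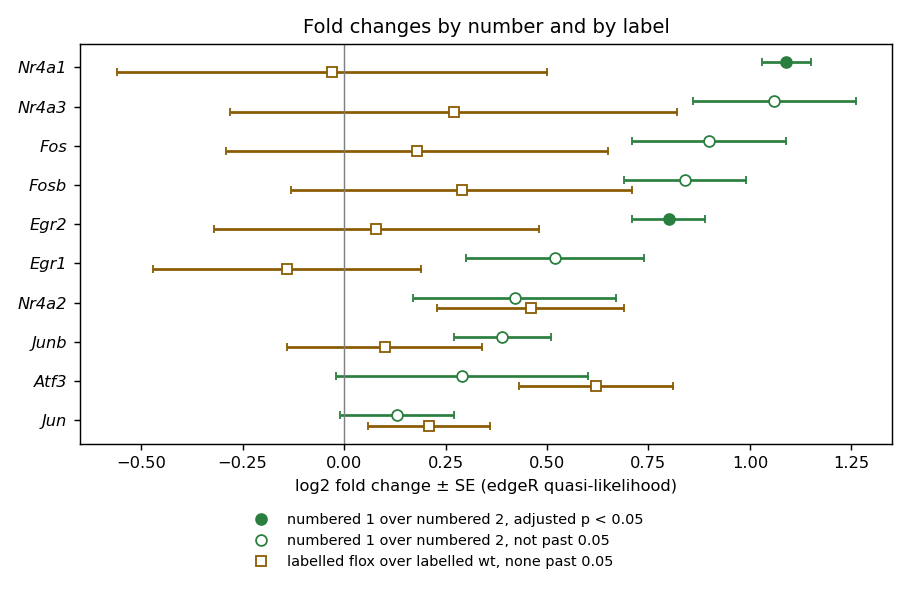
Log2 fold change ± SE (x axis) of each gene (y axis) from edgeR's quasi-likelihood fit, with circles for numbered 1 over numbered 2 (filled where the adjusted p is under 0.05) and squares for labelled flox over labelled wt. Nr4a1 (1.09) and Egr2 (0.8) are the filled circles and have the smallest SE by number. The squares come from a fit that leaves out the title number and span 0 for 7 of the 10 genes.

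The ratios within a label show how far both pairs of libraries went the same way. In the libraries labelled wt, library 1 exceeded library 2 for all 10 genes, from 1.11 times for Egr1 to 2.51 times (2.29 to 2.76) for Nr4a3. In those labelled flox it did so for 9 of the 10, from 1.13 times for Junb to 2.07 times for Nr4a1, and Jun was the exception at 0.967 (0.946 to 0.988). The ratio was larger in labelled wt than in labelled flox for 9 of the 10 genes, all but Egr1. Maf was low in both libraries numbered 2, with 40 counts in wt 2 and 15 in flox 2. The Maf ratio of library 1 to library 2 was 75.5 in labelled wt (55.3 to 106) and 168 in labelled flox (102 to 301). The part of Maf in the ratios of the 10 genes was not tested. For Fos the ratio was 2.3 (2.26 to 2.35) in labelled wt against 1.56 (1.54 to 1.59) in labelled flox, and for Atf3 it was 1.37 (1.23 to 1.52) against 1.14 (1.05 to 1.24). With 1 library per label and number, whether these ratios differ between labels cannot be tested against replicate spread.

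**Figure D3:**
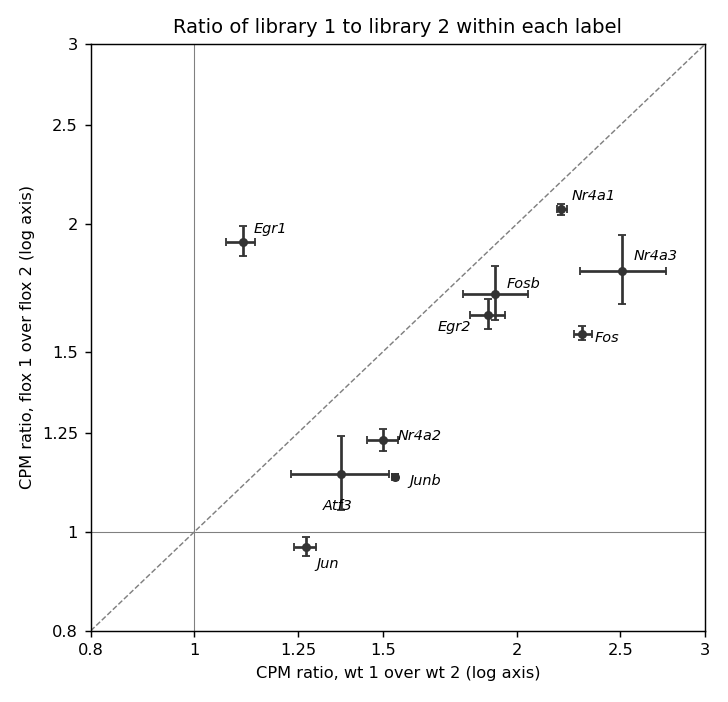
Ratio of CPM in library 1 to library 2 within labelled wt (x axis) and within labelled flox (y axis), both on log axes, with exact 95% binomial intervals that cover counting error only. The dashed line marks equal ratios: 9 genes lie below it and Egr1 above it, and only Jun lies below 1 on the y axis.

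Other genes of the same families and pathways were read from lists. Of the 9 remaining AP-1 family genes, 8 were tested and 1 rose by number, against 1.41% of all tested genes. This was Fosl2, which encodes the FOS relative FRA2, at 311, 123, 296 and 148 CPM (log2 fold change 1.16, SE 0.11, edgeR quasi-likelihood, adjusted p = 0.00809). With wt 1 left out, 0 of the 8 were called, so the call of Fosl2 was lost. The others did not pass. Jdp2, which encodes a repressor that pairs with JUN, had 12.2, 6.43, 13.9 and 7.35 CPM. Batf, the AP-1 factor of effector T cells, had 140, 123, 147 and 128, and Jund had 2640, 1700, 2790 and 2640. The median log2 fold change by number over the 8 tested genes was 0.16.

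Of 30 other immediate early and early response genes, all tested, 2 rose by number and 0 fell, against 1.41% and 0.399% of tested genes, and 29 had a fold change above 0, against 48.7%. Both libraries numbered 1 lay above both numbered 2 for 22 of the 30, against 22.5% of tested genes, and the median log2 fold change was 0.43. Both genes that rose, Csrnp1, a nuclear factor induced along with AP-1, and Arc, best known as an activity-regulated gene of neurons, passed edgeR's quasi-likelihood test. Csrnp1 had 828, 474, 774 and 532 CPM (log2 fold change 0.67, SE 0.09, adjusted p = 0.022) and Arc had 29, 14.9, 34.1 and 12.2 (1.22, SE 0.17, adjusted p = 0.0268). Maff, a small MAF protein, had 36.1, 18, 32.5 and 20.9 CPM, and Zfp36l1, an RNA-binding protein that promotes decay of AU-rich transcripts, had 744, 447, 695 and 531, without passing. The median of the 30 was 0.65 without the library labelled flox 2, 0.34 without wt 2, 0.43 without wt 1 and 0.42 without flox 1. The calls of Csrnp1 and Arc were lost when wt 1 or flox 1 was left out. By label 0 of the 30 passed, and 1, Klf4, a zinc finger factor of quiescence, had an unadjusted p under 0.05 (47.2, 43.2, 55.8 and 60.3 CPM), against 1.98% of tested genes.

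Of 10 co-regulators and targets of EGR and NR4A proteins, 2 rose by number and 0 fell, against 1.41% and 0.399% of all tested genes. Nab1, a co-repressor that binds EGR proteins, had 254, 169, 246 and 165 CPM (log2 fold change 0.58, SE 0.08, edgeR quasi-likelihood, adjusted p = 0.0251). Tox2, an HMG box factor of follicular T cells, had 323, 217, 348 and 187 (0.73, SE 0.1, adjusted p = 0.0256 by edgeR). Its relative Tox had 362, 276, 334 and 284 CPM and did not pass, nor did Cblb, a ubiquitin ligase and EGR target, at 204, 168, 187 and 155. Neither Nab1 nor Tox2 passed when the library labelled wt 1 or flox 1 was left out, where 0 of the 10 were called. The median log2 fold change was 0.14, and 8 of the 10 were above 0, against 48.7% of tested genes. Dgka (774, 836, 751 and 911 CPM, log2 fold change -0.2) and Nab2 (-0.16) were on average lower in the libraries numbered 1, without passing.

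Of 19 upstream kinases and transcription factors, 0 passed by edgeR's quasi-likelihood test and 3 had an unadjusted p under 0.05, all higher in the libraries numbered 1, against 8.12% of all tested genes. DESeq2 called 1 higher, against 3.43%. The median log2 fold change by number was 0.06. Mef2a, a calcium-regulated factor, had 66.3, 40.6, 62.4 and 46.8 CPM, and Nfatc1, the calcineurin-dependent NFAT factor, had 1070, 825, 1020 and 917. Mapk14, the p38 kinase, had 167, 138, 158 and 143 CPM.

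**Figure D4:**
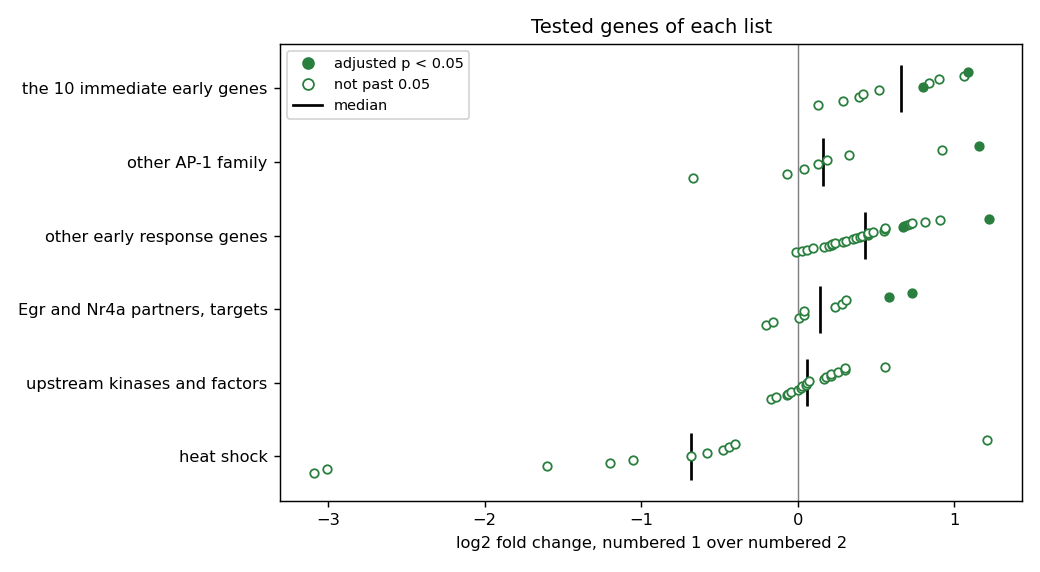
Log2 fold change of numbered 1 over numbered 2 (x axis) for each tested gene of 6 lists (y axis), filled where the adjusted p is under 0.05, with a black line at the median of each list. The medians are 0.66 for the 10 immediate early genes, 0.43 for other early response genes and 0.06 for upstream kinases and factors, and heat shock genes lie mostly below 0.

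Heat shock genes, chaperones that respond to protein stress, were read beside the immediate early genes. Of the 11 tested, 0 passed by edgeR's quasi-likelihood test (0 with an unadjusted p under 0.05, and 0 by DESeq2), 1 had a fold change above 0, Hspb1, and the median log2 fold change was -0.68. Hspa1a had 35.5, 103, 80.9 and 892 CPM and Hspa1b had 71.2, 199, 151 and 1590, with the library labelled flox 2 far above the others. With wt 2 left out, 7 of the 11 heat shock genes were called lower in the libraries numbered 1 by edgeR's quasi-likelihood test, with a median of -1.2, against 173 of all 13530 genes tested in that fit. Without the library labelled flox 2 the median of the heat shock list was 0.11, with 0 of the 11 called, and that of the 10 immediate early genes was 0.83. In the fit without flox 2, 6 of the 10 were called higher in the libraries numbered 1 by edgeR's quasi-likelihood test (Fos, Fosb, Junb, Egr2, Nr4a1 and Nr4a3), against 2.95% of the genes tested. With the library labelled wt 2 left out it was also 6 (Fos, Fosb, Egr1, Egr2, Nr4a1 and Nr4a3), against 2.6%. Without the library labelled wt 1 it was 1, Nr4a1, against 0.302%, and without flox 1 it was 1, again Nr4a1, against 0.634%. Each of these fits has a lone library in 1 group, which is assumed to vary like the others.

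Markers of other cell types were also present. Summed over each marker list, B cell genes (8 genes) had 48.9, 55.6, 91.4 and 44.3 CPM, myeloid genes (8 in the table) had 9.68, 59.4, 97 and 60, and epithelial genes (8 genes) had 144, 331, 346 and 238, above the level of Foxp3 alone in every library. Epcam, an epithelial adhesion molecule, had 75.8, 140, 91.9 and 89.2 CPM. Stromal and endothelial genes (5 genes) had 75.4, 85, 79.9 and 64.9 CPM, nearly all from Pecam1 (74.3, 82.7, 77.4 and 63.9). The rest of that list, Col1a1, Col1a2, Col3a1 and Cdh5, had 98, 33, 3 and 18 counts in all 4 libraries together. None of these 4 sums separated the libraries by number. By gene, the B cell markers leaned the same way as the immediate early genes, with 7 of the 8 genes tested. All 7 had a log2 fold change above 0 by number, against 48.7% of tested genes, with a median of 1.05. For 3 of the 7, both libraries numbered 1 lay above both numbered 2, against 22.5% of tested genes. The median was 0.12 without the library labelled flox 1, and 0.88 to 1.57 with any other library left out. None of the 7 passed edgeR's quasi-likelihood test, and Fcer2a, the low-affinity IgE receptor, had the smallest unadjusted p of 0.0411 (2.82, 1.93, 5.69 and 1.74 CPM). The myeloid sum was higher in both libraries labelled flox, as were Jun, Atf3 and Nr4a2. For the myeloid sum this order rests on a near tie, with 60 CPM in flox 2 against 59.4 in wt 2, and wt 1 stood apart at 9.68. Red cell genes (5 genes) summed to 1.51, 0.989, 3.81 and 0.145 CPM, all from Alas2, and were higher in both libraries numbered 1. Genes of CD8 T and natural killer cells (5 genes) summed to 54.6, 83.6, 60.3 and 101 CPM, lower in both libraries numbered 1. Klrb1c made up the largest part of this sum in every library, and without Klrb1c the sum did not separate by number. The log2 fold change by number of Prf1 was also below 0 (-0.34), while those of Cd8a (0.45) and Cd8b1 (0.01) were not. In that list Klrb1c, which encodes the receptor NK1.1, fell by number (22.6, 44.9, 21.3 and 68.5 CPM, log2 fold change -1.37, SE 0.21, edgeR quasi-likelihood, adjusted p = 0.0368), while Ncr1, a defining natural killer cell gene, had 4 counts in all 4 libraries together. Leaving out either wt 1 or flox 1 ended the call of Klrb1c, with 0 genes of the list called. Among the red cell genes, Hbb-bs, Hbb-bt, Hba-a1 and Hba-a2 had 0 counts in every library. Of 8 genes of regulatory T cell identity, 1 rose by number, against 1.41% of all tested genes: Ctla4, an inhibitory receptor, at 3340, 1630, 3340 and 2080 CPM (log2 fold change 0.85, SE 0.12, edgeR quasi-likelihood, adjusted p = 0.027). The median log2 fold change of the 8 was -0.01, and 4 of the 8 were above 0, against 48.7% of tested genes. For 2 of the 8, Il2ra (-0.24) and Foxp3 (-0.16), both libraries numbered 2 lay above both numbered 1, against 22.7%. With either wt 1 or flox 1 left out, 0 of the 8 were called. The part of these cells in the immediate early genes was not tested.

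Among the 8107 tested genes with a mean of at least 10 CPM (predicted genes, pseudogenes and the 10 genes themselves left out), those with the centred log2 profile over the 4 libraries nearest to the mean profile of the 10 genes were Stx1a, Sgk1, Aldoc, Zbtb4, Cxcr6 and Cd69. Their Euclidean distances ranged from 0.0908 to 0.113 on the log2 scale. Sgk1, a serum-induced and glucocorticoid-induced kinase, had 109, 60.4, 120 and 82.9 CPM. Cxcr6, a chemokine receptor of effector T cells, had 146, 83.6, 144 and 104. Cd69, an early activation antigen that is itself in the early response list, had 610, 392, 687 and 496. With 4 libraries, such nearness describes these values only.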

How the data were processed

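Per the labels' protocols, RNA was taken up in Trizol, cleaned on columns and made into 4 libraries with a kit for very low input. The submitters' processing notes name the genome mm10 and the tools edgeR 3.14, HTSeq 0.6.1 and TopHat2 2.1.1. Settings and annotation: not given in the sources used here. As values, the authors deposited raw counts per gene symbol (24061 gene rows); 5 counter summary rows, 66.6% to 67.2% of column totals, were left out. They also deposited normalized values (a signal, 10618 rows), used only to find their grouping. Some 27 symbols had become dates and are not named.

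Samples were grouped by genotype and number in the titles. A separate replicate field gives rep 1 for both wt and rep 2 for both flox libraries and was not used. Counts were filtered (filterByExpr, 13022 genes), scaled by TMM and tested with edgeR 4.0.16 (glmQLFit robust, glmQLFTest) in R 4.3.3, with Benjamini-Hochberg adjustment at 0.05; the SE is the log2 fold change over the root of F. DESeq2 1.42.0, limma-voom 3.58.1, other scalings and filters, a block and leaving out each library were alternatives. The counts of called genes and the medians per list with a library left out were added after seeing the data. With 2 against 2, an exact permutation test cannot go below p = 0.333, so none was run. On simulated counts for the comparison by number (12749 genes), 52 of 99 genes changed 2-fold, 79 of 100 changed 4-fold and 18 of 12550 unchanged genes were called. For the comparison by label (12739 genes) these were 40 of 95, 67 of 96 and 31 of 12548. In both simulations, unchanged genes made up a larger share of the calls than the 0.05 aimed for. The members and 12 other lists were chosen with earlier results of these data known. Named genes were the members, Maf and the 6 nearest in profile. In each list up to 4 genes with the smallest p by number and 2 by label were also named. Prdx2, Ncr1, Dgka, Nab2, Col1a2, Col3a1, Cdh5 and the globin genes were named after their values were seen. GENCODE vM21 (mm10) held the symbols of 94.4% of gene rows.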

Additional observations from a re-analysis of the deposited data

Results flagged for a closer look

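In 4 genes, patterns of opposite direction were found with both counting intervals (95%) clear of 1, none of which could be tested with 1 library per label and number. For Jun, library 1 exceeded library 2 in labelled wt (1.27 times, 1.24 to 1.3) and was below it in labelled flox (0.967), a ratio of these ratios of 1.31. For 3 genes the change from labelled wt to labelled flox went up at one number and down at the other. Fos also had ratios on either side of 1 (0.994 and 1.46), but the interval of the first, 0.979 to 1.01, included 1. Egr1 was 1.14 times as high in flox 1 as in wt 1 and 0.655 times as high in flox 2 as in wt 2, with a ratio of ratios of 0.575. Junb was 0.939 and 1.28 times as high (ratio of ratios 1.36), and Nr4a1 0.961 and 1.02 times (1.07). All intervals cover counting error only and not the scaling between libraries. The TMM factors ran from 0.973 in wt 1 to 1.04 in wt 2, and the opposite directions of Nr4a1 depend on this scaling.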

How the results depend on the processing

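By number, 236 genes and 2 of the 10 members were called. Without a filter on low counts these were 589 and 4, with DESeq2 635 and 5, and with the label as a block 212 and 4. Leaving out 1 library gave 46 to 525 genes and 1 to 6 members; without wt 1 it was 46 genes, without flox 1 116, without flox 2 504 and without wt 2 525. The log2 fold change by number kept its sign for all 10 members in each alternative, except for Jun (-0.07 to 0.36) and Atf3 (-0.04 to 0.72) when 1 library was left out. By label, 1 gene was called, 2 without a filter, 12 with DESeq2, 0 with limma-voom (262 at an unadjusted p under 0.05) and 0 whichever library was left out, and 0 of the members in every alternative. With 1 library left out, the log2 fold change by label changed sign for Fos (-0.29 to 0.91), Fosb (-0.15 to 0.83), Junb (-0.17 to 0.44), Egr1 (-0.68 to 0.26), Egr2 (-0.32 to 0.6), Nr4a1 (-0.64 to 0.65) and Nr4a3 (-0.24 to 1.08). The causes were not tested. With the title number as a replicate block, 1 gene and 0 members were called by label, as without it. The SE by label of each member was lower with this block, at 0.15 for Fos and 0.08 for Nr4a1. Same-numbered libraries deviated together from their label means (r = 0.264 across genes), but the labels do not say that a number marks a pair.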
